A study of Arabidopsis thaliana with 18 samples.

Results

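The endo-beta-mannanases of Arabidopsis thaliana, MAN1 to MAN7, were followed in dry and imbibed seeds of 3 genotypes. The members were taken by locus, as AT1G02310 (MAN1), AT2G20680 (MAN2), AT3G10890 (MAN3), AT3G10900 (MAN4), AT4G28320 (MAN5), AT5G01930 (MAN6) and AT5G66460 (MAN7), and all 7 were found among the 33602 transcript models of the counts. Of the 7, 5 passed the filter on low counts and were among the 18061 genes tested, and each of these 5 reached at least 1 CPM (read pairs scaled to the total of the library times its TMM factor) in a group.

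Polyadenylated RNA was sequenced from seeds of wild type, a line labelled mpk8 and a line labelled tcp14, each described as a gene knock out without an allele being named. The gene MPK8 encodes a MAP kinase, and TCP14 belongs to the TCP transcription factors. Seeds were used dry and without treatment, or were imbibed as dormant seeds with water on filter paper for 24 h, at 25 °C in darkness; all parent plants had been grown on soil at 21 °C. Each of the 6 groups held 3 libraries called biological replicates, and since the labels do not say whether these were separate plants or seed lots, p-values measure the spread between these samples. Libraries held 12170793 to 21233207 counted pairs. TMM factors ran from 0.707 to 0.777 in dry and from 1.16 to 1.60 in imbibed libraries, which gave effective sizes of 9607965 to 26963407 pairs, and on that scale 3 pairs corresponded to 0.111 to 0.312 CPM. MPK8 was lower but present in the mpk8 line, at 4.04 ± 0.502 CPM against 11.4 ± 0.588 in dry wild type and 4.31 ± 0.397 against 11.7 ± 0.849 after imbibition (SD, n = 3). TCP14 went against its label, at 44.1 ± 0.501 CPM in dry seeds labelled tcp14 against 6.86 ± 1.39 in dry wild type, and 34.5 ± 3.14 against 15.7 ± 1.98 after imbibition, so that line is called tcp14-labelled throughout. All 10 reserve genes of the embryo had pairs in every library, so the samples carried seed transcripts. Of 4 endosperm genes, EPR1 was abundant and EXPA2 appeared on imbibition, while ZOU and ALE1 had at most 4 pairs in any group.

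Mannans are cell wall polysaccharides with a backbone of mannose, alone or mixed with glucose, which may carry galactose side groups and acetyl groups. Endo-beta-mannanases, of glycoside hydrolase family 5, cut this backbone internally, and beta-mannosidases and alpha-galactosidases break the pieces down further. In seeds they are known for loosening the walls of the endosperm that covers the radicle tip, and MAN5, MAN6 and MAN7 have been connected with germination in Arabidopsis.

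The coding bases around the catalytic acid-base glutamate are shown because this site carries the shared activity of the family and because the likeness of members bears on which reads can be assigned. The capitals mark the glutamate codon, which lies within an asparagine-glutamate-proline triplet in each member. Sequences are from the RefSeq TAIR10.1 assembly, each from the coding strand, in 5′ to 3′ direction, 57 bases long and within 1 coding exon.
MAN1: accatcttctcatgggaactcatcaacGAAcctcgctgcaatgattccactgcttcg
MAN2: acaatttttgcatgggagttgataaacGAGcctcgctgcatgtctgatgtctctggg
MAN3: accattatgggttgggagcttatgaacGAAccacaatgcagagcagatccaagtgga
MAN4: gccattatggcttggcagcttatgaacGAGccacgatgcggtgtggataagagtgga
MAN5: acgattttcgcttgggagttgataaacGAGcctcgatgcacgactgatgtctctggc
MAN6: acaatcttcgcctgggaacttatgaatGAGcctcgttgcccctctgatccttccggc
MAN7: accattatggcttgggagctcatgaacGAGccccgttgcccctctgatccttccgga

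In TAIR10.1 the windows lie at chr1:459033-459089 (MAN1, minus strand), chr2:8922187-8922243 (MAN2, plus strand), chr3:3408185-3408241 (MAN3, minus strand), chr3:3411243-3411299 (MAN4, minus strand), chr4:14019111-14019167 (MAN5, minus strand), chr5:361950-362006 (MAN6, minus strand) and chr5:26539772-26539828 (MAN7, minus strand). The window is in exon 4 of MAN6 and in exon 3 of the others. Within it, MAN2 and MAN5 shared 50 of 57 bases, MAN6 and MAN7 shared 47, and MAN3 and MAN4, which are neighbours on chromosome 3, shared 45. Over the aligned coding sequence, MAN3 and MAN4 were 83.8% identical, MAN2 and MAN5 were 81.4% identical, and the other pairs were 58.9% to 71.2% identical. The longest identical run between any pair of member transcripts was 44 bases, in MAN2 and MAN5. A read that falls within such a run would have equal hits, and reads with equal hits were left out of the deposited counts. Whether any read or pair was short enough to do so was not tested.

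The make-up of the family turned over on imbibition, from MAN1 in dry seeds to MAN7 after 24 h. Levels were compared between genes as CPM per kilobase of the model. On this scale MAN1 stood at 45.0 ± 0.964 in dry wild type (SD, n = 3), above MAN5 at 5.34 ± 0.0666, MAN7 at 1.60 ± 0.0309, MAN6 at 0.979 ± 0.215 and MAN2 at 0.177 ± 0.113. In imbibed wild type the order was MAN7 at 32.6 ± 0.617, MAN5 at 2.37 ± 0.161, MAN2 at 1.93 ± 0.286, MAN6 at 0.230 ± 0.0849 and MAN1 at 0.0741 ± 0.0431. The libraries of MAN5 and MAN2 overlapped in this second order, and no other neighbours did in either order.

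As a share of the summed level per length, MAN1 made up 84.8% ± 0.236 in dry wild type, 87.0% ± 0.367 in dry mpk8 and 85.6% ± 0.905 in dry tcp14-labelled seeds. After imbibition MAN7 made up 87.6% ± 0.873, 86.3% ± 1.03 and 85.7% ± 0.711 in the same order (SD, n = 3 each). The sum over the 7 genes per length was 53.1 ± 1.07, 55.3 ± 4.37 and 56.3 ± 2.36 in the dry groups, and 37.2 ± 1.08, 24.2 ± 1.28 and 25.7 ± 1.58 in the imbibed groups. The 3 imbibed wild-type libraries, at 36.5 to 38.4, lay above the 6 imbibed libraries of the other lines, at 22.8 to 27.2, while dry mpk8 overlapped with both other dry groups and dry wild type, at 51.9 to 53.8, lay below dry tcp14-labelled seeds, at 54.5 to 58.9. These sums rest on the TMM scaling. With library totals, tried after seeing the data, the sum was 39.6 ± 1.57 in dry and 58.8 ± 2.13 in imbibed wild type, so its direction turned there. In mpk8 it was then 39.3 ± 3.08 and 30.4 ± 1.68, and in tcp14-labelled seeds 42.7 ± 0.360 and 32.3 ± 4.19, still lower after imbibition. Imbibed wild-type libraries, at 56.8 to 61.0, again lay above those of the other lines, at 27.8 to 36.1.

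**Figure D1:**
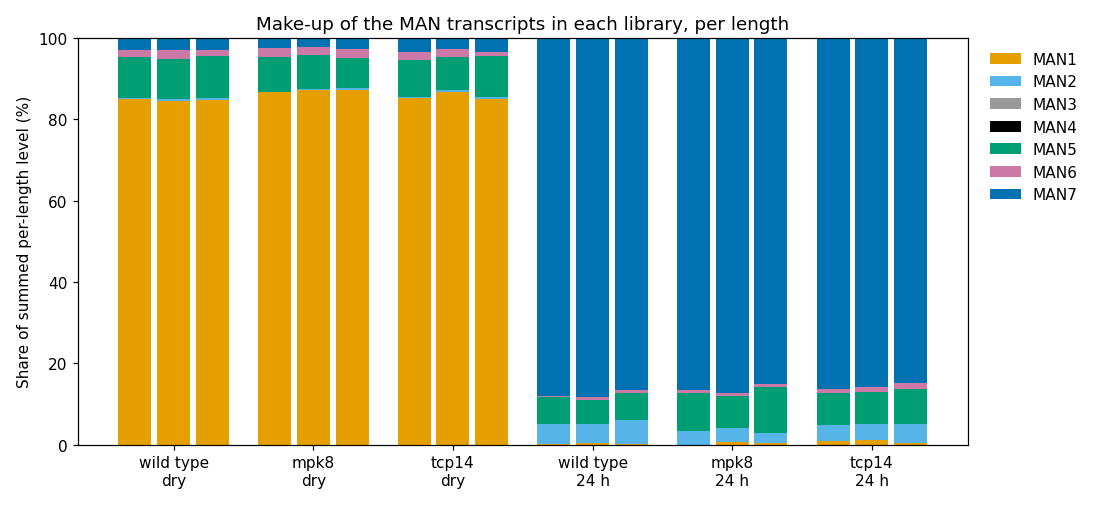
Share of each MAN gene in the summed CPM per kilobase (percent, vertical axis), with 1 stacked bar per library and 3 libraries per group. MAN1 fills 84.8% of the dry wild-type bars on average and MAN7 fills 86.6% to 88.3% of the imbibed wild-type bars.

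MAN1 was the member lost on imbibition. In dry wild type its 3 libraries gave 63.6, 63.1 and 61.1 CPM, in dry mpk8 60.8, 71.6 and 68.3 CPM, and in dry tcp14-labelled seeds 69.7, 66.6 and 64.4 CPM. After 24 h the wild-type libraries held 1, 3 and 3 pairs, the mpk8 libraries 0, 6 and 2 pairs, and the tcp14-labelled libraries 7, 9 and 3 pairs. Every imbibed library was thus at or below 0.425 CPM and far below every dry library. By the edgeR quasi-likelihood test, with Benjamini-Hochberg adjustment over all genes tested, the log2 fold change was -9.22 in wild type (adjusted p = 5.8e-22). By the same test it was -9.12 in mpk8 (adjusted p = 6.6e-22) and -7.74 in tcp14-labelled seeds (adjusted p = 2.0e-21). The size of each fall is uncertain, since it rests on the few pairs left after imbibition.

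MAN7 went the other way. Dry wild-type libraries gave 3.27, 3.15 and 3.23 CPM, dry mpk8 libraries 2.51, 2.72 and 3.09 CPM, and dry tcp14-labelled libraries 4.08, 3.18 and 3.78 CPM. After imbibition they gave 64.8, 64.7 and 66.9 CPM in wild type, 39.7, 43.0 and 43.4 CPM in mpk8, and 47.2, 44.5 and 41.0 CPM in tcp14-labelled seeds. All imbibed libraries were above all dry ones, and the imbibed wild-type libraries were above those of both other lines. By the edgeR test the rise was 20.4-fold in wild type (log2 4.35, adjusted p = 4.8e-22). By the same test it was 15.1-fold in mpk8 (log2 3.92, adjusted p = 5.1e-21) and 11.9-fold in tcp14-labelled seeds (log2 3.57, adjusted p = 1.2e-20).

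MAN2, the nearest relative of MAN5, also rose, from a low level. It had 1, 5 and 5 pairs in the dry wild-type libraries (0.347 ± 0.223 CPM) and 3.62, 3.33 and 4.41 CPM after imbibition. Imbibed mpk8 libraries gave 1.48, 1.59 and 1.23 CPM and imbibed tcp14-labelled libraries 2.11, 1.94 and 2.21 CPM. The 3 imbibed groups did not overlap, with wild type highest and mpk8 lowest, whereas all dry libraries were at or below 0.578 CPM. By edgeR the log2 fold change on imbibition was 3.43 in wild type (adjusted p = 5.7e-10). It was 2.17 in mpk8 (edgeR adjusted p = 6.1e-06) and 2.17 in tcp14-labelled seeds (adjusted p = 8.9e-07). The size of each rise is uncertain, since it rests on few pairs in dry seeds.

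MAN5 and MAN6 were lower after imbibition. MAN5 gave 9.13, 8.93 and 8.95 CPM in dry wild type and 4.05, 3.70 and 4.23 CPM in imbibed wild type, with no overlap. Its log2 fold change was -1.17 in wild type (SE 0.133, adjusted p = 2.3e-08), -0.96 in mpk8 (SE 0.134) and -1.32 in tcp14-labelled seeds (SE 0.135), called by edgeR in each. This fall depended on the scaling: with plain library totals in place of TMM factors it was -0.08 (adjusted p = 0.601) in wild type and -0.14 (adjusted p = 0.358) in mpk8, and the call was kept in tcp14-labelled seeds at -0.59. MAN6 gave 1.44, 1.79 and 1.14 CPM in dry wild type, from 11 to 21 pairs, and 0.197, 0.422 and 0.408 CPM after imbibition, from 5 to 11 pairs. Its groups did not overlap either, and its log2 fold change was -2.10 in wild type (edgeR adjusted p = 4.7e-06). In mpk8 the change of MAN6 was -2.51 and in tcp14-labelled seeds -1.49. It was called in each, also with library totals.

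MAN3 had 0 pairs in all 18 libraries and MAN4 had 1 pair, in an imbibed wild-type library, so both were below the 3 pairs that a count of 0 allows and neither was detectable at this depth. This floor of 3 pairs covers counting error only. The 95% intervals below were built from the log2 fold change and F statistic of the edgeR fit, which takes in the spread between libraries. Where a group holds few pairs, such intervals can be narrower than counting error alone.

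**Figure D2:**
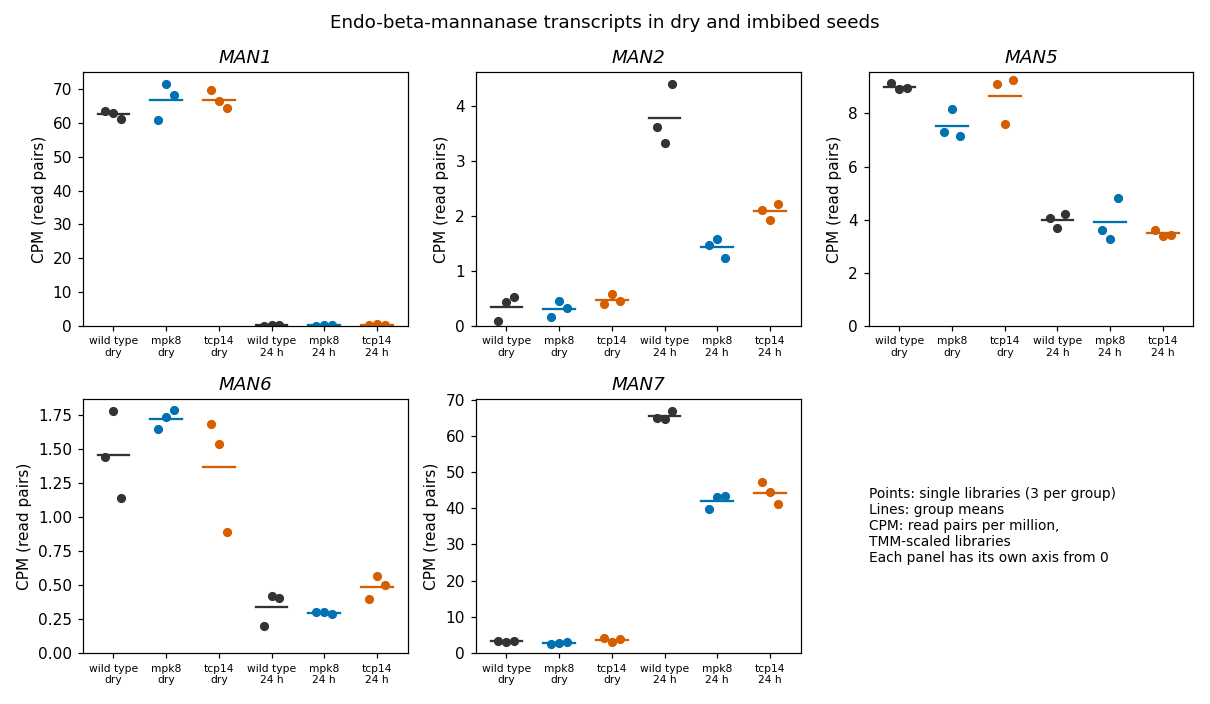
CPM of the 5 tested MAN genes (vertical axis, read pairs scaled to TMM-adjusted library size, each panel from 0) in the 6 groups, with points for single libraries and lines for group means. MAN1 stands at 60.8 to 71.6 CPM in dry libraries and at most 0.425 CPM after imbibition, and MAN7 at 2.51 to 4.08 CPM and 39.7 to 66.9 CPM.

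In each genotype, imbibition thus called all 5 tested members, 2 higher (MAN2 and MAN7) and 3 lower (MAN1, MAN5 and MAN6), with MAN5 not called under library totals in wild type and mpk8. Calls were the rule among all genes: 86.1% of genes tested were called in wild type (46.0% higher, 40.1% lower), 83.1% in mpk8 (44.4% and 38.7%) and 83.1% in tcp14-labelled seeds (43.8% and 39.3%). Being called therefore does not set the family apart. The median log2 fold change of the 5 members was -1.17, -0.96 and -1.32 in wild type, mpk8 and tcp14-labelled seeds, beside 0.14, 0.15 and 0.11 over all genes tested. Library totals moved the median of all genes by 1.09, 0.82 and 0.73 on the log2 scale in the same order. They also moved the share of calls that were higher from 53.4% to 79.6% in wild type. In mpk8 that share moved from 53.4% to 77.5%, and for tcp14-labelled seeds it went from 52.7% to 75.6%. In bulk seeds, fewer cells of a type and less RNA per cell cannot be told apart.

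Several members overlap other genes in TAIR10.1, and the sources used here do not state whether counting used strand. Shared bases are those of the TAIR10.1 models. The counted models of MAN5 and MAN7 are shorter, at 1685 and 2011 bases against 1757 and 2667, so the bases shared in the counts may differ. MAN1 shares 32 exon bases with AT1G02305 on the opposite strand, which stood at 68.9 to 97.3 CPM in every group, dry or imbibed. MAN6 shares 148 exon bases with AT5G01920 on the opposite strand, at 21.4 to 39.0 CPM, so its few pairs are uncertain. MAN7 shares 131 exon bases with AT5G66470 on the same strand, which stood at 3.96 to 7.80 CPM in dry libraries and at 13.8 to 26.9 CPM after imbibition. Its part in the level of MAN7 was not tested. MAN5 shares 30 exon bases with AT4G28310 on the opposite strand, at 0 to 0.104 CPM in dry libraries and 0.172 to 5.78 CPM after imbibition.

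Dry seeds of the 3 lines were compared to ask whether the genotypes start with different mannanase transcripts. None of the 5 tested members was called by edgeR in mpk8 against wild type, where 2.62% of genes were called, nor in tcp14-labelled seeds against wild type, where 11.4% were called. At an unadjusted p under 0.05 the count was also 0 in both, and DESeq2 called 0. MAN1 differed by 0.10 on the log2 scale in mpk8 (95% interval -0.10 to 0.29) and by 0.10 in tcp14-labelled seeds (-0.10 to 0.29), whose libraries lay above those of wild type. MAN7 differed by -0.21 in mpk8 (-0.54 to 0.11) and by 0.22 in tcp14-labelled seeds (-0.09 to 0.52), and its mpk8 libraries lay just below those of wild type. MAN5 differed by -0.25 in mpk8 (-0.54 to 0.04), with its libraries below those of wild type. The share of all tested genes whose libraries separated in this way in dry seeds was not counted, so no difference is read from it. For MAN2, with 11 to 18 pairs per dry group, the intervals were wide, from -1.32 to 1.04 in mpk8 and from -0.68 to 1.48 in tcp14-labelled seeds. The share of higher calls among all genes in dry mpk8 moved from 58.6% to 19.9% with library totals and to 73.4% with DESeq2.

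Between the lines, mpk8 against tcp14-labelled dry seeds called no member by edgeR or DESeq2, with 25.0% of genes called. At an unadjusted p under 0.05 there was 1 member, MAN7, whose 3 mpk8 libraries all lay below the 3 tcp14-labelled ones (log2 difference -0.43, 95% interval -0.73 to -0.13, edgeR adjusted p = 0.0656). Library totals called it, at -0.52 (adjusted p = 0.0256), as did single reads in place of pairs, at -0.41 (adjusted p = 0.0112), and leaving out the second tcp14-labelled library, at -0.50 (adjusted p = 0.0473). With library totals the share of higher calls moved from 50.7% to 26%.

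After 24 h of imbibition both lines had less MAN7 and MAN2 transcript than wild type. MAN7 was 65.5 ± 1.24 CPM in wild type, 42.0 ± 2.05 in mpk8 and 44.3 ± 3.09 in tcp14-labelled seeds (SD, n = 3 each). The difference from wild type was -0.64 on the log2 scale in mpk8 (SE 0.0587, edgeR adjusted p = 2.7e-09) and -0.56 in tcp14-labelled seeds (SE 0.0589, adjusted p = 4.9e-08). MAN2 was 3.79 ± 0.563 CPM in wild type, 1.43 ± 0.183 in mpk8 and 2.09 ± 0.139 in tcp14-labelled seeds. Its difference from wild type was -1.40 in mpk8 (SE 0.198, edgeR adjusted p = 1.7e-06) and -0.87 in tcp14-labelled seeds (SE 0.191, adjusted p = 0.000543). Both comparisons share the wild-type libraries.

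The other members gave small or uncertain differences in imbibed seeds. MAN5 stood at 3.99 ± 0.271, 3.90 ± 0.826 and 3.48 ± 0.112 CPM in wild type, mpk8 and tcp14-labelled seeds, with differences of -0.05 (95% interval -0.34 to 0.24) and -0.20 (-0.50 to 0.10) from wild type. Library totals called it lower in both lines, at -0.38 (adjusted p = 0.0232) and -0.53 (adjusted p = 0.00315). MAN6 stood at 0.342 ± 0.126, 0.296 ± 0.0101 and 0.487 ± 0.0860 CPM, with differences of -0.18 (-1.05 to 0.69) and 0.51 (-0.30 to 1.32). MAN1 held 7 pairs in the wild-type group, 8 in mpk8, of which 6 were in 1 library, and 19 in tcp14-labelled seeds. It was called higher in the tcp14-labelled line, at 1.57 (SE 0.580, edgeR adjusted p = 0.0251). That call was lost with library totals (1.27, adjusted p = 0.0686), without the first wild-type library (1.18, adjusted p = 0.116), without the third wild-type library (1.69, adjusted p = 0.0513) and without the second tcp14-labelled library (1.26, adjusted p = 0.125).

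Of the 5 tested members, imbibed mpk8 against wild type thus called 0 higher and 2 lower, where 64.6% of all genes were called (33.8% higher, 30.8% lower). Imbibed tcp14-labelled seeds against wild type called 1 higher and 2 lower, where 55.2% were called (27.3% and 28.0%). The 40% and 60% of tested members that were called, set beside these backgrounds, do not set the family apart. Library totals moved the share of higher calls among all genes from 52.3% to 19.8% in mpk8 and from 49.4% to 12.6% in tcp14-labelled seeds, with a median shift of -0.33 in both, and kept the calls of MAN7 and MAN2. Imbibed mpk8 against tcp14-labelled seeds called no member by edgeR or DESeq2, with 21.0% of genes called. At an unadjusted p under 0.05 there were 2 members, MAN2 at -0.53 (adjusted p = 0.0853) and MAN1 at -1.38 (adjusted p = 0.0865), and MAN7 differed by -0.08 (95% interval -0.21 to 0.05). MAN1 passed the threshold without the second mpk8 library, at -2.67 (adjusted p = 0.0101), and without the third tcp14-labelled library, at -1.64 (adjusted p = 0.0419).

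**Figure D3:**
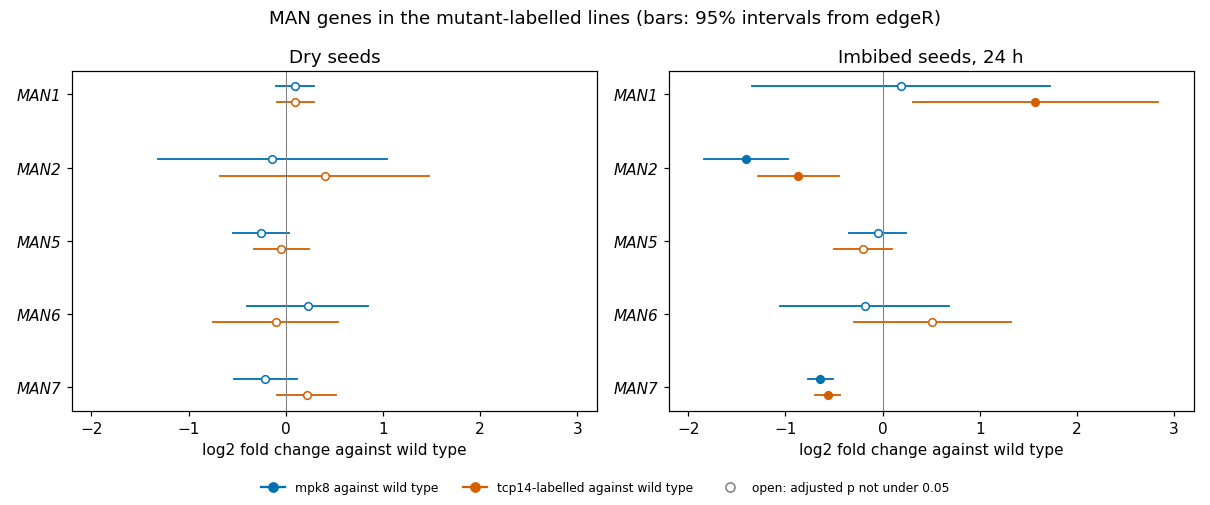
Log2 fold change (horizontal axis) of the 5 tested MAN genes in the mpk8 and tcp14-labelled lines against wild type, in dry seeds (left) and after 24 h of imbibition (right), with bars for 95% intervals and filled points for an adjusted p under 0.05. No dry point is filled, and MAN2 and MAN7 lie below 0 in both lines after imbibition.

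Whether a line changed the response to imbibition was tested as an interaction of genotype and imbibition. For MAN7 the response of tcp14-labelled seeds was smaller than that of wild type, with an interaction of -0.78 on the log2 scale (SE 0.151, edgeR adjusted p = 0.000348), from dry libraries at 3.68 ± 0.460 CPM against 3.21 ± 0.0622 in wild type. In mpk8 the interaction was -0.43 (SE 0.161, 95% interval -0.78 to -0.08, adjusted p = 0.0754) and was not called. It was called with library totals, at -0.70 (adjusted p = 0.00786), with single reads in place of pairs, at -0.41 (adjusted p = 0.0237), and with the compared groups fitted alone, at -0.47 (adjusted p = 0.0472). MAN2 had interactions of -1.26 in mpk8 (adjusted p = 0.0947) and -1.27 in tcp14-labelled seeds (adjusted p = 0.0716). Library totals called both, at -1.53 (adjusted p = 0.0494) and -1.62 (adjusted p = 0.0188), and the second was also called without the third dry wild-type library, at -1.61 (adjusted p = 0.0482). MAN1 had one of 1.48 in tcp14-labelled seeds (adjusted p = 0.0566), resting on few pairs. It was called with all genes with a count (adjusted p = 0.0429), with single reads (adjusted p = 0.0383), with the compared groups alone (adjusted p = 0.0359), and without the second imbibed wild-type library (1.82, adjusted p = 0.0446) or the third imbibed tcp14-labelled library (1.72, adjusted p = 0.0341). MAN5 passed in tcp14-labelled seeds with library totals alone, at -0.51 (adjusted p = 0.0453).

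The mpk8 interaction called 0 members by edgeR and DESeq2, with 2 at an unadjusted p under 0.05, where 39.0% of genes were called. The tcp14 interaction called 1 member, lower, where 33.2% were called (19.2% higher, 13.9% lower). Library totals moved the share of higher calls from 61.5% to 26.4% and from 58% to 12%, with median shifts of -0.27 and -0.36.

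Marker genes of seed parts and other organs moved in the same samples. The summed level of the 10 embryo reserve genes ran from 187319 to 214192 CPM in dry libraries, and after imbibition between 45413 and 55083 CPM in wild type, between 111891 and 113606 in mpk8, and between 111391 and 160444 in tcp14-labelled seeds. Of the endosperm genes, EXPA2, an expansin of the germinating endosperm, had at most 3 pairs in a dry group and reached 152 ± 8.27 CPM in imbibed wild type, 17.1 ± 3.57 in mpk8 and 63.4 ± 15.3 in tcp14-labelled seeds. It was lower than in wild type in both lines (log2 -3.16, SE 0.143, and -1.26, SE 0.129, edgeR adjusted p = 7.8e-14 and 3.5e-08), as were MAN7 and MAN2. EPR1, a proline-rich protein gene of the endosperm, stood at 28448 ± 1517 CPM in dry wild type. Dry mpk8 had 30587 ± 3578 CPM and dry tcp14-labelled seeds 24822 ± 2457. By group means EPR1 fell on imbibition in each genotype, and less so in both lines than in wild type. It was then at 3069 ± 454 CPM in imbibed wild type, 6683 ± 622 in mpk8 and 5481 ± 1038 in tcp14-labelled seeds. The 3 leaf genes summed to between 231 and 269 CPM in imbibed wild type, between 68.0 and 76.2 in mpk8 and between 124 and 159 in tcp14-labelled seeds. Nearly all of this was RBCS1A, with 33007 pairs over the 18 libraries, beside 246 of CAB3 and 118 of CAB2. In imbibed mpk8, 1 of the 3 had no pair. The part of these shifts in the MAN7 and MAN2 differences was not tested.

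Beside the loss of MAN1, the 3 pollen genes VGD1, VGDH1 and PGA4 summed to 102 to 112 CPM in dry wild type, 59.7 to 64.1 in dry mpk8 and 111 to 156 in dry tcp14-labelled seeds. After imbibition the sum was 0 in wild type and tcp14-labelled seeds and at most 0.0757 CPM in mpk8. In dry mpk8 the pollen sum was below that of every wild-type library, while MAN1 overlapped with wild type. Its part in the level of MAN1 was not tested.

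Genes with a pattern like each member over the 6 group means were sought among 7806 genes with a symbol, as the root mean square difference of centred log2 CPM, with 1 pair added to each count. Where a gene has few or no pairs in a group, the added pair sets the distance, so no distance is given for such genes. These likenesses are descriptions, since all genes share the same 18 libraries. Listed closest to MAN1, itself at few pairs after imbibition, were PYL12, of the ABA receptor family, sks14 and RALFL9, of which PYL12 and RALFL9 had 0 CPM in imbibed wild type. Closest to MAN7 were CNX1, coding for calnexin, at 0.08, and BIP1, a chaperone of the endoplasmic reticulum, at 0.09, with Pearson r over the 18 libraries of 0.997 and 0.996, followed by MEE16, which had 0 CPM in dry wild type. MAN2, at few pairs in dry seeds, was nearest to MEE67, RTNLB3 and ACHT5. MAN5 was nearest to UBC3, GILP and PRA1.E (0.05 to 0.08), and MAN6, at few pairs throughout, to MIPS1, ERF11 and GSTU1. Many genes had like patterns: within a distance of 0.5 lay 256 of the 7806 genes for MAN7 and 2349 for MAN5. The genes named are thus the nearest of many.

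Other genes of mannan synthesis and breakdown were taken as a list of 29, of which 20 were tested. On imbibition 12 rose, 5 fell and 3 did not pass the test in wild type, 12, 6 and 2 in mpk8, and 12, 7 and 1 in tcp14-labelled seeds. The called shares of 85%, 90% and 95% stand beside 86.1%, 83.1% and 83.1% of all genes, so being called does not set the list apart. In tcp14-labelled seeds the number that fell was 4 without the first dry library and 3 without the second. Their median log2 fold changes were 2.09, 1.42 and 1.23, also with genes absent from dry seeds set at their lower bound. With library totals the counts were 16, 2 and 2, then 14, 2 and 4, and again 14, 2 and 4.

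The genes that act after the mannanases rose, apart from AGAL3. BGLU44, a beta-mannosidase, went from 19.3 ± 0.969 to 154 ± 9.36 CPM in wild type (log2 3.00, SE 0.0671, edgeR adjusted p = 1.3e-21), and to 133 ± 3.34 in mpk8 and 141 ± 3.00 in tcp14-labelled seeds. AGAL2, an alpha-galactosidase, had 0 pairs in dry wild type and 12.9 ± 1.27 CPM after imbibition, at least 136.4-fold higher with dry seeds set at 3 pairs over the group. In imbibed seeds AGAL2 reached 0.550 ± 0.221 CPM in mpk8 and 2.07 ± 0.501 in tcp14-labelled seeds, with differences from wild type of -4.57 (SE 0.220) and -2.63 (SE 0.181) on the log2 scale, both called lower by edgeR. AGAL1 rose from 5.59 ± 0.303 to 54.8 ± 3.37 CPM in wild type and was higher still in imbibed mpk8, at 81.9 ± 4.69. AGAL3 fell in wild type, from 144 ± 5.32 to 47.0 ± 0.461 CPM. BGLU43 was not tested.

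Synthesis genes were mixed. Of 11 backbone genes 4 were tested, and 3 rose in wild type, among them MSR1, from 1.18 ± 0.453 to 10.7 ± 0.913 CPM. CSLA9, a glucomannan synthase, rose in wild type from 1.21 ± 0.278 to 4.49 ± 0.413 CPM but fell in mpk8, from 0.526 ± 0.138 to 0.123 ± 0.182, and in tcp14-labelled seeds, from 2.16 ± 0.410 to 1.28 ± 0.147. The imbibed mpk8 libraries held 1, 0 and 7 pairs of CSLA9, and without the third the group stood at 0.0189 CPM and the fall moved from -2.14 to -4.28 on the log2 scale. The fall in tcp14-labelled seeds was not called without the first or second dry library (adjusted p = 0.0804 and 0.0865) or without the second imbibed one or the third (adjusted p = 0.0670 and 0.0573). With library totals those falls were -1.34 (adjusted p = 0.0533) and 0.00 (adjusted p = 0.998), and neither was called. The interactions of CSLA9 were -4.01 (SE 0.690, edgeR adjusted p = 7.6e-05) and -2.60 (SE 0.418, adjusted p = 4.8e-05) in mpk8 and tcp14-labelled seeds, and the mpk8 value was -6.14 without the third imbibed mpk8 library. CSLA2, another glucomannan synthase, stood at 23.2 ± 1.38 and 25.0 ± 1.75 CPM in dry and imbibed wild type, where it was not called with TMM factors or DESeq2 size factors and was called higher with library totals (adjusted p = 1.6e-10), and was lower in imbibed mpk8 at 12.4 ± 0.866 and in tcp14-labelled seeds at 13.9 ± 0.991.

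Among side-group genes, 3 of 5 rose and 2 fell in wild type. MUCI10, a galactosyltransferase of glucomannan, rose from 0.550 ± 0.260 to 14.5 ± 1.40 CPM, and the acetyltransferase gene MOAT3 from 0.857 ± 0.284 to 7.76 ± 0.579. MOAT1 fell by 0.53 on the log2 scale but was higher by 0.56 with library totals, and MOAT4 fell by 1.05 but was not called with them (0.04, adjusted p = 0.874). Of the 4 genes that supply GDP-mannose, PMM, a phosphomannomutase, rose from 1.57 ± 0.733 to 24.6 ± 2.21 CPM in wild type and reached 5.74 ± 1.08 in mpk8 and 10.2 ± 2.15 in tcp14-labelled seeds. PMI1, a mannose-6-phosphate isomerase, fell from 74.5 ± 5.70 to 17.9 ± 0.891 CPM in wild type.

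Of the 4 regulators, DOF6, a Dof factor known to bind TCP14, had 3 pairs in dry wild type and 2.39 ± 0.379 CPM after imbibition, with 1.02 ± 0.208 in mpk8 and 1.92 ± 0.483 in tcp14-labelled seeds. DAG1, a Dof factor that represses germination, was not called in wild type, at 1.13 ± 0.436 and 1.67 ± 0.233 CPM, though it was called higher with library totals (log2 1.64) and DESeq2 size factors (log2 0.59). It was also called without the first dry library (log2 0.91) or the second imbibed one (log2 0.63). bZIP44, known to act upstream of MAN7, was listed at 0 in all 18 libraries, as was AT1G75388, whose model has the same length of 1311 bases, so its level could not be read here.

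In imbibed mpk8 against wild type, 3 of the 20 were higher, 11 lower and 6 not called, with a median of -0.33 beside 0.04 over all genes. That is 70% of the list called, beside 64.6% of all genes (33.8% higher, 30.8% lower). In imbibed tcp14-labelled seeds 2 were higher, 8 lower and 10 not called, with a median of -0.22 beside 0, and 50% called beside 55.2% of all genes (27.3% higher, 28.0% lower). With library totals the counts were 1, 14 and 5, and 0, 14 and 6. In dry mpk8 against wild type edgeR and DESeq2 called 0 of the 20, with 5 at an unadjusted p under 0.05, where 2.62% of all genes were called. Dry tcp14-labelled seeds had 1 higher (BGLU44) and 1 lower (CSLA2) by edgeR, or 10% of the list beside 11.4% of all genes.

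**Figure D4:**
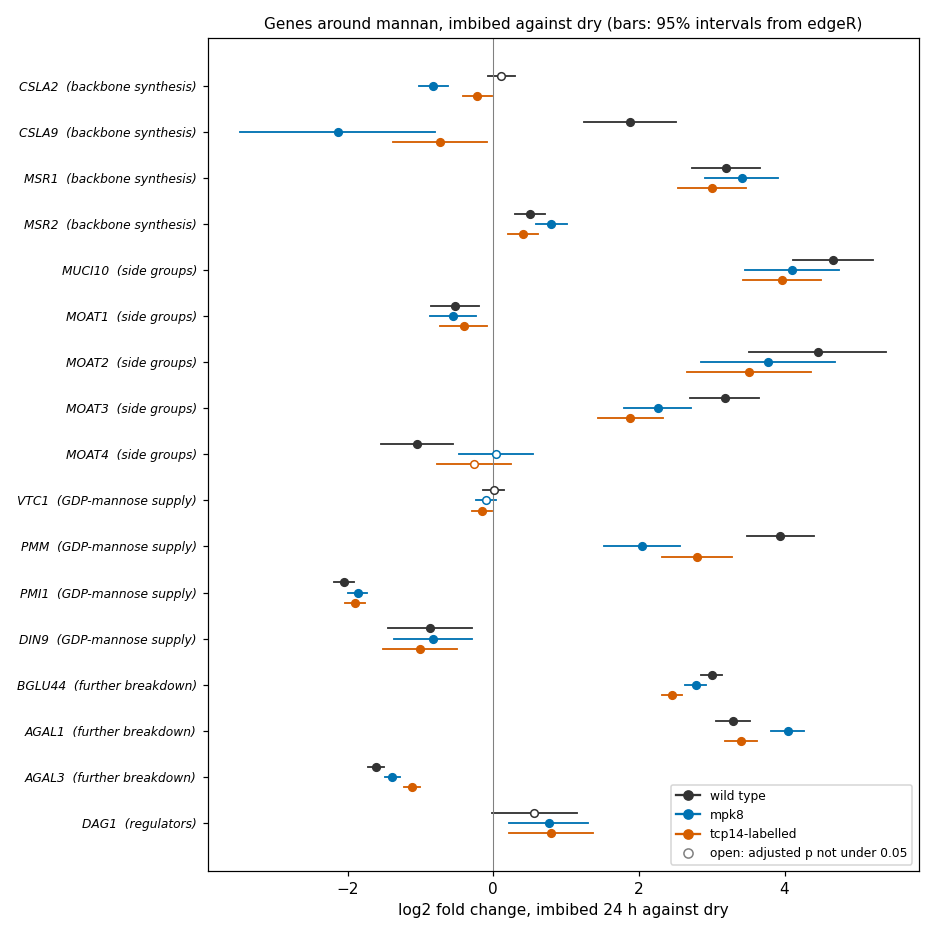
Log2 fold change on imbibition (horizontal axis) of 17 genes around mannan in wild type, mpk8 and tcp14-labelled seeds. Bars are 95% intervals, which can be narrower than counting error for genes with few pairs in a group. Open points are for calls that did not pass. AGAL2, DOF6 and DAG2, with 3 pairs or fewer in a dry group, are not drawn, and CSLA9, on the TMM scale, lies above 0 in wild type and below 0 in both other lines.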

How the data were processed

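The deposited counts give read pairs for each transcript model; per the file headers, singletons were handled as unmapped, no limit was put on the insert, and reads with several equal best hits were removed by the authors. Mapping used TopHat2 and Bowtie2 on TAIR10, per the submitters' processing notes, without versions. Libraries were stranded and poly(A) selected, per the labels' protocols. The deposited counts of pairs were used as raw counts, and deposited counts of single reads served in 1 alternative. Model lengths are a deposited column of another kind, used for levels per kilobase. For MAN2, MAN5 and MAN7 they are 1966, 1685 and 2011 bases, against 2040, 1757 and 2667 in TAIR10.1.

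Genes passing filterByExpr of edgeR 4.0.16 (limma 3.58.1, R 4.3.3) over the 6 groups, 18061 in all, were fitted with the quasi-likelihood model with TMM factors, 1 mean per group and all 18 libraries. Calls have a Benjamini-Hochberg adjusted p under 0.05 over all genes tested. SE values come from the size of the log2 fold change over the root of its F statistic. The 11 comparisons are imbibition in each line, pairs of lines in each state and 2 interactions. The fit was also run on simulated counts with known changes, drawn for all groups from the imbibed wild-type means. These held no shift between dry and imbibed seeds, so that run does not bear on the choice of scaling. Alternatives were DESeq2 1.42.0 size factors in edgeR, library totals, the DESeq2 Wald test, single reads, no filter beyond a count, fits of the compared groups alone, omission of each library in turn, and the replicate number as a block. Library totals for the family sum and omission of libraries for the mannan list were chosen after seeing the data.

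Genes named are the 7 members, the genes of the mannan list, the markers and, for each member reaching 1 CPM in a group, the 3 genes with the most alike pattern among genes with a symbol. Members and lists were chosen with earlier results of these data known. Coordinates and sequences are from TAIR10.1, since the files carry none. No pair of libraries in a group agreed within sampling noise (lowest chi-square per degree of freedom 1.58).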

Additional observations from a re-analysis of the deposited data

Results flagged for a closer look

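The response of MAN7 to imbibition differed between tcp14-labelled and wild-type seeds by a test of the difference itself, with an interaction of -0.78 on the log2 scale (SE 0.151, edgeR adjusted p = 0.000348). Leaving out each of the 12 libraries concerned in turn gave -0.85 to -0.69.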

How the results depend on the processing

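Library totals changed most. With them the calls were 1 in dry mpk8 against tcp14-labelled seeds, 2 in the mpk8 interaction and 3 in the tcp14 interaction, where the main counts were 0, 0 and 1. MAN1 then changed sign in imbibed mpk8 against wild type (-0.13) and in the mpk8 interaction (-0.15), and MAN5 in the mpk8 interaction (-0.061), none of them called. Single reads gave 1, 1 and 2 calls in the same 3 comparisons, the compared groups alone gave 1 and 2 in the interactions, and all genes with a count gave 2 in the tcp14 interaction. MAN1 in dry mpk8 against tcp14-labelled seeds, near 0, changed sign with DESeq2 size factors (0.021), the DESeq2 Wald test (0.021) and all genes with a count (0.0082). The cause was not tested.

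Leaving out single libraries gave 0 to 1 calls in mpk8 against tcp14-labelled seeds, both dry and imbibed, and 1 to 2 in the tcp14 interaction. Log2 values that crossed 0 were not called: in dry mpk8 MAN2 ran from -0.57 to 0.21; in imbibed mpk8 MAN1 from -1.09 to 0.83, MAN5 from -0.22 to 0.065 and MAN6 from -0.47 to 0.0062; in dry tcp14-labelled seeds MAN2 from -0.028 to 0.75, MAN5 from -0.093 to 0.031 and MAN6 from -0.31 to 0.14. In mpk8 against tcp14-labelled seeds MAN1 ran from -0.051 to 0.065 when dry and MAN5 from -0.019 to 0.26 when imbibed, and in the mpk8 interaction MAN1 ran from -1.19 to 0.74. Of the values compared with their alternatives, 719 single-gene values kept direction and side of the threshold, 23 changed sign, 19 passed the threshold only under the alternative and 6 no longer passed it. Of the counts, 140 stayed within 1.5 times and 15 moved, and all 6 group sums of the family moved with library totals.

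Replicate numbers were not used to pair the samples in the main fit. Correlations of same-numbered libraries ran down to -0.20 and did not all pass 0.1 in any comparison. Yet 6 of 6 libraries matched their own number best in dry mpk8 against tcp14-labelled seeds. In dry mpk8 against wild type 5 of 6 did, and 0 to 4 in the other comparisons. In each dry group replicates 2 and 3 were most alike, with chi-square per degree of freedom of 1.58 to 2.00. Dry pairs with replicate 1 gave 3.16 to 6.02. What the numbers stand for was not tested. With a replicate block no call of a member changed, and the MAN7 interaction in tcp14-labelled seeds was -0.78 (adjusted p = 0.000699). Over all genes, dry mpk8 against wild type called 473 genes, 838 with all genes with a count and 1045 with the compared groups alone, and imbibed mpk8 against tcp14-labelled seeds called 3796, or 2351 with the compared groups alone. Depth limits MAN1 after imbibition, MAN2 in dry seeds and MAN6 throughout, each with few pairs.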
